A study of Oryza sativa with 12 samples.

Results

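These data follow 100 transcripts of the rice leaf whose signal was lower on every drought array than on every control array, in mutant and wild-type plants alike. They were chosen by their own values. For each probe set the gap was taken as the lowest of the 6 control values minus the highest of the 6 drought values, and the 100 largest positive gaps were kept, out of 32012 probe sets that exceeded the array median on 3 or more arrays. A few genes were left out by name, of which 3 had a positive gap and 1 a gap as large as the smallest kept. Each member is 1 probe set, a group of short probes read as 1 value. Of the 100, 65 match 1 gene each in the reference annotation of assembly ASM3414082v1, for 60 different genes, all protein-coding. Only 5 of these genes carry a name there, namely CAD3, BGLU3, INO1, PHO1-3 and BZIP52. The others are given by locus identifier, and the 35 members without a gene by the identifier of their probe set.

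The study measured leaf RNA on 12 Affymetrix rice arrays in 4 groups of 3. They are osnox2 drought, WT drought, osnox2 control and WT control. WT is Oryza sativa ssp. Japonica cv. Dongjin, and osnox2 is 1 T-DNA insertion mutant line. The study's title names the plasma membrane NADPH oxidase OsRbohA. No gene carries that name in the annotation used here, so the disrupted gene itself could not be read. Plants of both genotypes shared pots in a greenhouse, and the youngest fully expanded leaf of 2.5-month-old plants was taken. Control leaves were collected at day 0, at a soil moisture of 47.3%, and drought leaves at day 15 of the treatment, at 8.5%. Drought and the 15 days of added age therefore cannot be told apart. In leaf tissue taken whole, fewer cells of a type and less RNA per cell cannot be told apart either.

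Plants that lose soil water close their stomata, slow growth and shift metabolism, and many transcripts fall while protective ones rise. NADPH oxidases of the plasma membrane make superoxide outside the cell, and the reactive oxygen that follows takes part in signalling by abscisic acid, the hormone of water shortage. Lignin building, sugar conjugates, inositol and phosphate export, the processes served by the named members, are each part of normal leaf growth and nutrition.

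Values are log2 signals. The number of arrays limits their precision, and p-values measure the spread between arrays that the labels call biological replicates. Array medians ran from 5.08 to 5.43, and the median residual SD was 0.418. Of 5 leaf marker genes 4 stood above the array median on all 12 arrays. Their summed signal (log2) ran from 16.4 to 16.6 under drought and from 16.2 to 17.3 under control. That of 5 senescence genes ran from 13.7 to 14.2 under drought and from 13.0 to 14.1 under control. That of 7 genes of dividing cells ran from 10.3 to 10.7 and from 9.75 to 10.5 in the same order. Of the senescence genes 4 stood above the array median on all 12 arrays, but of the genes of dividing cells only 1 did. Of 10 endosperm marker genes (MADS3 among them only through an alias) 3 exceeded the array median on all 12 arrays, and of 3 anther genes none did. The part of leaf age or cell makeup in the values below was not tested. On the first principal component (35.8% of the variance), osnox2 control replicates 1 and 2 and WT control replicate 1 stood apart from the rest. These 3 control arrays correlated with the other 9 at 0.868 to 0.895, and the main results that rest on control arrays are also given without them. Values without them rest on 1 osnox2 control array and 2 WT control arrays.

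Of the 32012 probe sets 1.52%, or 487, had every control value above every drought value, and 916 had every drought value above every control value. The 487 moved in both directions with scaling, to 294 after centring on array medians and to 556 after quantile normalization. Leaving arrays out can only raise the count, since fewer values have to be passed. With single arrays left out it ran from 530 (without osnox2 control replicate 2) to 821 (without osnox2 control replicate 3). It was 1965 without the 3 control arrays that stood apart. No dependence on an array is read from these rises. The gap of the members ran from 0.301 to 1.70 with a median of 0.502. At the edge of the set, LOC4325158, LOC4329333 and Os.1505.1.S1_x_at had gaps of 0.309, 0.302 and 0.301. Just outside it, OsAffx.11832.1.S1_at, LOC4349807 and LOC4332592 had gaps of 0.297, 0.295 and 0.292. No step in the values marks the edge of the set.

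**Figure D1:**
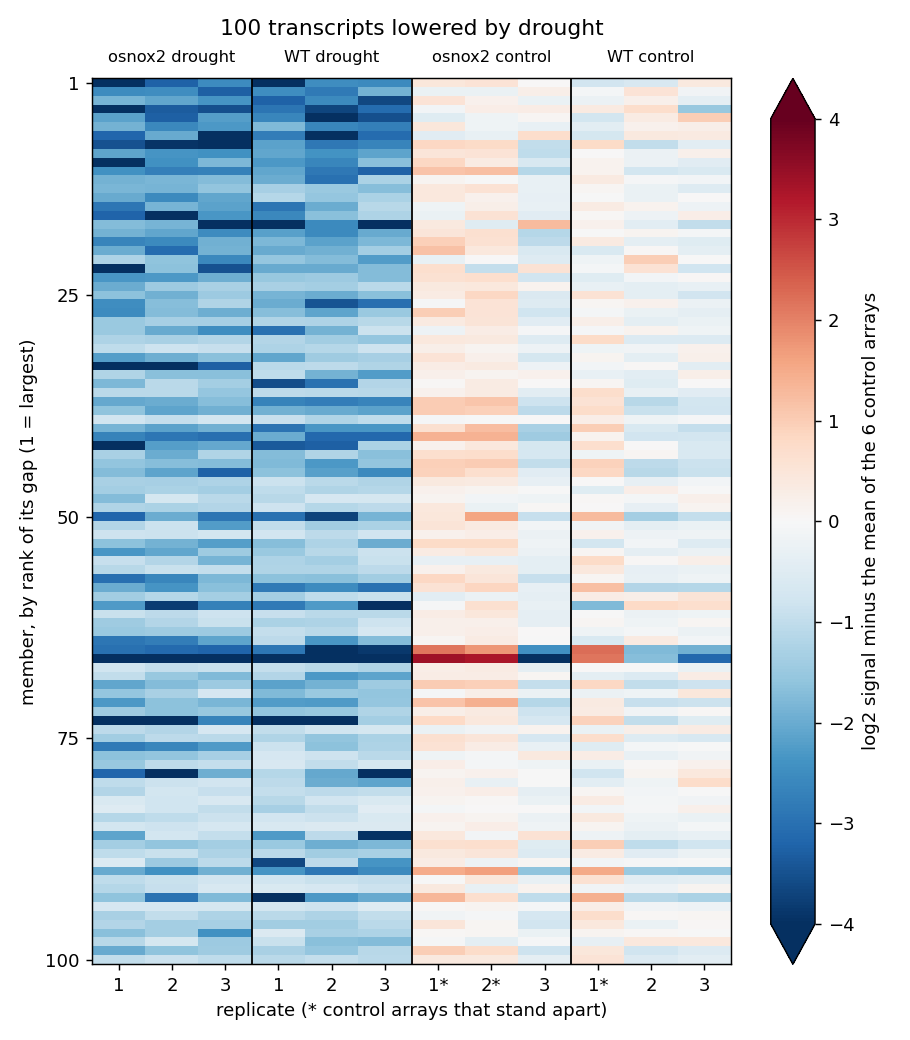
Heat map of the 100 members (rows, by rank of their gap) on the 12 arrays (columns, by group and replicate). Colour gives the log2 signal minus the mean of the 6 control arrays, cut at 4 on either side. All drought columns are blue, and the 3 control arrays marked with a star are redder than the other 3 in many rows (all 3 above the other 3 in 50).

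Under drought the members fell by a median of 1.88 on the log2 scale in osnox2 leaves and 1.52 in WT leaves. These values are a description without a test, since the gap that chose the members is the same contrast. Among all 32012 probe sets the median change was 0.08 in osnox2 and 0.02 in WT. In osnox2 83 members fell by more than 1 on the log2 scale and 45 by more than 2, and in WT 77 and 33 did. Without the 3 control arrays that stood apart these counts were 62 and 17 in osnox2 and 67 and 22 in WT. By limma, at an adjusted p under 0.05, 38 members were lower under drought in osnox2, where 0.241% of all probe sets were, and 9 in WT, where 0.0469% were. Without the 3 arrays the order of the genotypes turned, with 17 members lower in osnox2, where 0.375% of all probe sets were, and 53 in WT, where 1.45% were. Nothing is read from these counts.

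The member with the largest gap was LOC4337486 on chromosome 4. It read 3.37, 5.07 and 5.79 in osnox2 drought and 1.74, 5.82 and 5.74 in WT drought, against 8.76, 8.85 and 8.31 in osnox2 control and 7.53, 7.66 and 8.68 in WT control. One array in each drought group was far below its replicates, and even the highest drought value lay 1.70 below the lowest control value. LOC4350749 on chromosome 11 came second by gap. Its values were 5.21, 5.23 and 4.45 in osnox2 drought and 5.23, 4.89 and 5.81 in WT drought, against 7.43, 7.45 and 7.94 in osnox2 control and 7.63, 8.25 and 7.57 in WT control. Both genotypes fell by almost the same amount, -2.65 ± 0.34 in osnox2 and -2.51 ± 0.34 in WT (log2 difference ± SE, n = 3 arrays per group, as below unless arrays are left out).

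LOC4344496 on chromosome 8 read 5.39, 6.05 and 5.86 in osnox2 drought and 6.45, 5.69 and 6.29 in WT drought, against 9.26, 9.63 and 9.66 in osnox2 control and 9.74, 10.09 and 7.88 in WT control. WT control replicate 3 was far below the other 5 control arrays, and its value set the gap of 1.43. The probe set OsAffx.27267.1.S1_at, with no gene here, read 6.78, 6.57 and 6.29 in osnox2 drought and 5.40, 6.08 and 5.01 in WT drought, against 9.19, 8.80 and 8.36 in osnox2 control and 8.40, 8.82 and 8.24 in WT control. Here WT drought leaves lay below osnox2 drought leaves without overlap.

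LOC4335630 on chromosome 4 fell furthest among the leading 10 in osnox2, by 4.23 on the log2 scale, or 18.8-fold. It read 6.05, 5.60 and 4.81 in osnox2 drought and 7.39, 6.66 and 6.90 in WT drought, against 10.34, 10.28 and 8.55 in osnox2 control and 10.30, 8.55 and 9.12 in WT control. The highest control values were those of the 3 arrays that stood apart. Without those arrays its change was -3.06 in osnox2 and -1.85 in WT. LOC4340800 on chromosome 6 changed by -3.06 ± 0.63 in osnox2 and -2.03 ± 0.63 in WT, LOC4344094 on chromosome 7 by -3.66 ± 0.89 and -3.56 ± 0.89 in the same order, and OsAffx.30755.1.S1_at by -2.30 ± 0.37 and -2.18 ± 0.37. The first 2 were dim under drought, and with an offset of 64 added to the signal before the logarithm their changes were -1.48 and -1.06 for LOC4340800 and -1.57 and -1.65 for LOC4344094. Without the 3 arrays OsAffx.30755.1.S1_at changed by -1.27 in osnox2 and -2.18 in WT.

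**Figure D2:**
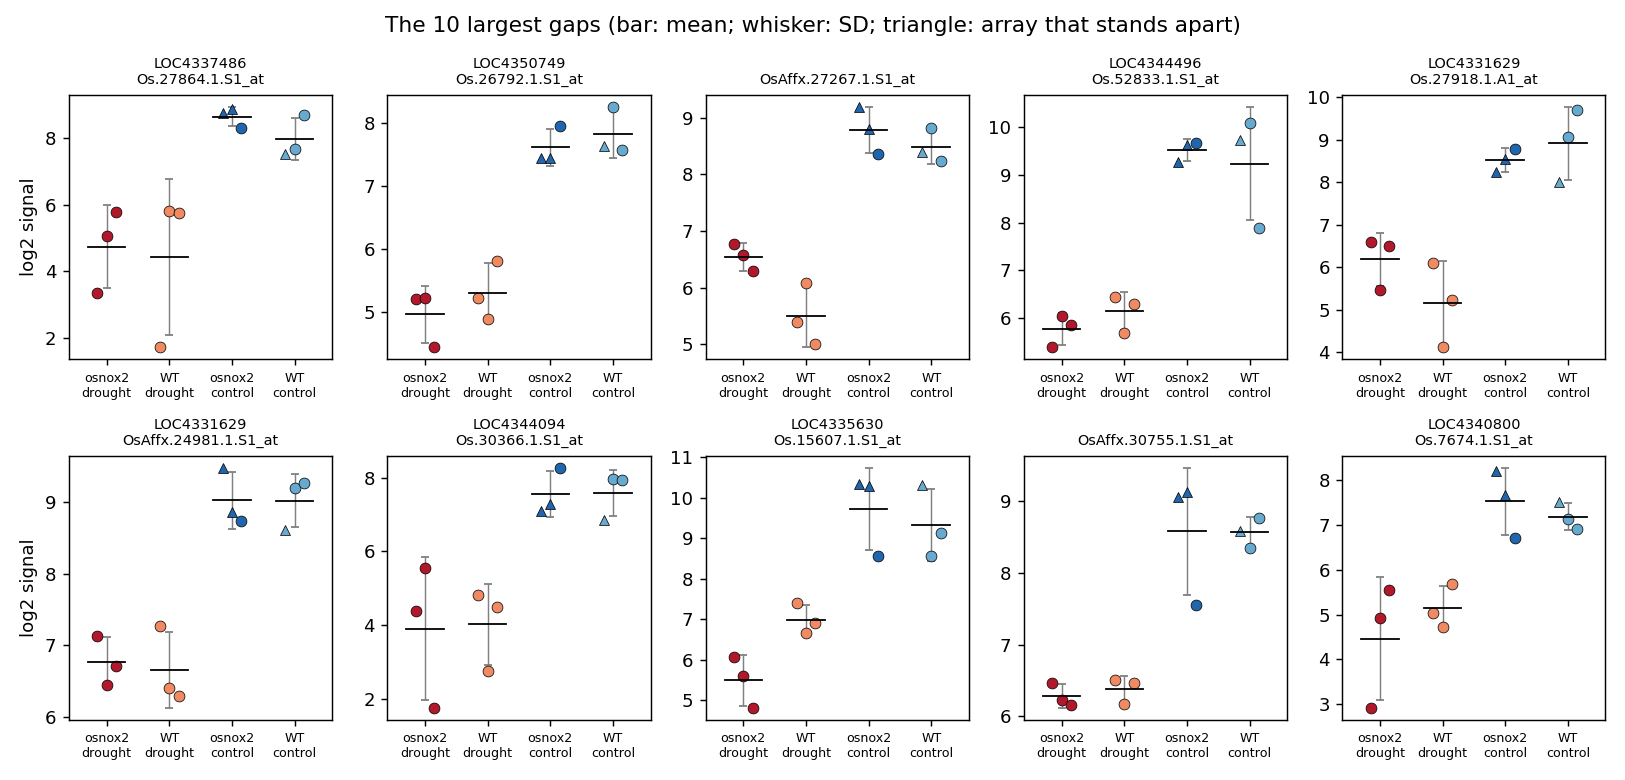
Log2 signal on each array for the 10 members with the largest gaps, by group (x axis); points are arrays, triangles the 3 control arrays that stood apart, bars means and whiskers the SD of 3 arrays. In every panel all 6 drought points lie below all 6 control points, with gaps of 1.03 to 1.70.

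Most members stayed above the array median under drought, and a minority were dim. Of the 100, 93 stood above the array median on all 6 control arrays, and 70 still did on all 6 drought arrays, while 9 were below it on all 6. The filter and the rule partly set these counts, since each member had to exceed the array median on 3 or more arrays. Those 9 members passed the filter through their control arrays alone. Shares over all probe sets were not counted. On at least 1 drought array 14 members read below 3, a range in which log2 values of MAS5 signals scatter widely, and 2 stood at the lowest value of the table, Os.50824.1.S1_x_at and LOC4341171. An offset of 64 added to the signal before the logarithm, which draws dim values together, made the median change -1.34 in osnox2 and -1.07 in WT. No detection calls were used.

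For 5 genes, 2 probe sets each were among the members. Both probe sets of a pair read the same gene, so they are not independent. LOC4331629 on chromosome 3 had gaps of 1.41 and 1.34, and changed by -2.35 and -2.27 in osnox2 and by -3.77 and -2.37 in WT. LOC4324276 on chromosome 1 changed by -2.55 and -2.60 in osnox2 and by -1.73 and -1.45 in WT, and without the 3 arrays by -1.34 and -1.56 in osnox2 and by -1.46 and -1.35 in WT. LOC4346800 on chromosome 9 fell by 1.68 and 1.64 in osnox2 and by 1.56 and 1.65 in WT, and LOC4334638 on chromosome 3 by 1.44 and 1.22 in osnox2 and by 1.50 and 1.36 in WT. Without the 3 arrays the changes of LOC4334638 were -0.70 and -0.52 in osnox2 and -1.38 and -1.18 in WT. LOC4342532 on chromosome 7 is described with the genotypes below.

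Another 17 probe sets belong to 12 member genes without being members. Their mean under drought was below that under control for 15 of them, and 9 of the 11 that passed the filter. The share of all probe sets with a lower mean under drought was not counted. These probe sets read the same genes on the arrays that chose the members, so they are no independent check. Only 2 had a positive gap, at 0.0518 for BGLU3 and 0.136 for LOC4334638. A second probe set of LOC4331765 averaged 8.69 under drought and 8.28 under control, and one of LOC4349165 averaged 5.56 under drought and 4.38 under control, so for these 2 genes the probe sets disagreed. Members ending in x_at or s_at, 11 and 5 of the 100, hold probes that also match other transcripts, and their signal may include related genes.

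Among the named genes, CAD3 (LOC4348690, chromosome 10) belongs to the cinnamyl alcohol dehydrogenases, which make the alcohol building blocks of lignin. CAD3 read 10.19, 9.71 and 9.90 in osnox2 drought and 9.88, 9.80 and 9.66 in WT drought, against 12.83, 12.76 and 10.78 in osnox2 control and 12.54, 10.93 and 11.04 in WT control. Drought values were tight, and control values split into a high set, the 3 arrays that stood apart, and a lower one. Its change was -2.19 ± 0.54 in osnox2 and -1.72 ± 0.54 in WT, and without those arrays -0.84 and -1.20. Of the 5 cinnamyl alcohol dehydrogenase genes with a name, CAD3 was the only one with a positive gap, and none passed the drought test. Its relative CAD changed by -0.95 ± 0.52 in osnox2 and -1.05 ± 0.52 in WT, and CAD1 by 0.09 ± 0.17 and -0.18 ± 0.17 in the same order. The families of the named members were drawn up after the members were known.

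BGLU3 (LOC4327593, chromosome 1) is a beta-glucosidase, of a family that splits glucose from small conjugates and from cell wall sugars. BGLU3 read 6.48, 6.20 and 6.43 in osnox2 drought and 5.39, 6.02 and 6.00 in WT drought, against 8.98, 9.58 and 7.05 in osnox2 control and 9.31, 7.73 and 7.38 in WT control. It changed by -2.16 ± 0.63 in osnox2 and -2.34 ± 0.63 in WT, and by -0.68 and -1.75 without the 3 arrays. A second probe set of BGLU3 that passed the filter read 6.36, 6.09 and 6.12 in osnox2 drought and 5.60, 4.55 and 4.75 in WT drought, against 7.71, 8.28 and 6.48 in osnox2 control and 8.21, 7.22 and 6.41 in WT control. On both of these probe sets the osnox2 drought leaves lay above the WT drought leaves without overlap. The difference on the member, 0.57, did not pass the test (limma adjusted p = 0.9999). On another, dim probe set of BGLU3 that the filter left out, the drought values of the genotypes overlapped. Of 21 named beta-glucosidase genes BGLU3 alone had a positive gap, none passed the drought test, and the median change was 0.16 in osnox2 and 0.28 in WT.

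INO1 (LOC4331917, chromosome 3, also called RINO1) encodes myo-inositol phosphate synthase, which turns glucose 6-phosphate into the precursor of inositol, phytate and the raffinose sugars. INO1 read 7.34, 8.52 and 7.59 in osnox2 drought and 7.52, 6.80 and 8.65 in WT drought, against 10.95, 12.08 and 9.58 in osnox2 control and 11.77, 9.15 and 9.55 in WT control. This was the deepest fall among the named members, 8.31-fold in osnox2 and 5.66-fold in WT, and it too was larger with the 3 arrays than without (-1.76 in osnox2 and -1.70 in WT on the log2 scale). The 1 other named gene of inositol and raffinose synthesis, RFS, had no positive gap and did not pass the test. It changed by -1.24 ± 0.67 in osnox2 and 0.12 ± 0.67 in WT.

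PHO1-3 (LOC4341088, chromosome 6) belongs to the PHO1 family, known in Arabidopsis and rice for loading phosphate into the xylem. PHO1-3 read 7.15, 7.47 and 6.10 in osnox2 drought and 7.34, 6.93 and 7.06 in WT drought, against 8.84, 8.69 and 8.22 in osnox2 control and 8.18, 7.97 and 8.06 in WT control. Its change was -1.68 ± 0.32 in osnox2 and -0.96 ± 0.32 in WT, and without the 3 arrays -1.31 and -0.91. Of 7 named genes of phosphate export and uptake none passed the test, and PHO1-3 alone had a positive gap. PHO1-2 changed by 0.15 ± 0.18 in osnox2 and -0.17 ± 0.18 in WT.

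BZIP52 (LOC4341753, chromosome 6, also called RISBZ5) is a transcription factor of the basic leucine zipper class, whose overexpression is known to make rice more sensitive to drought and cold. BZIP52 read 8.14, 7.90 and 7.21 in osnox2 drought and 7.82, 7.70 and 8.17 in WT drought, against 8.74, 8.72 and 8.67 in osnox2 control and 9.81, 9.12 and 9.29 in WT control. It changed by -0.96 ± 0.26 in osnox2 and -1.50 ± 0.26 in WT, and moved little without the 3 arrays, to -0.92 and -1.30. Among 17 named genes of the class none passed the test. TGA2.1, a factor of the TGA group, had the 1 other positive gap, 0.08, and changed by -0.61 ± 0.14 in osnox2 and -0.41 ± 0.14 in WT.

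**Figure D3:**
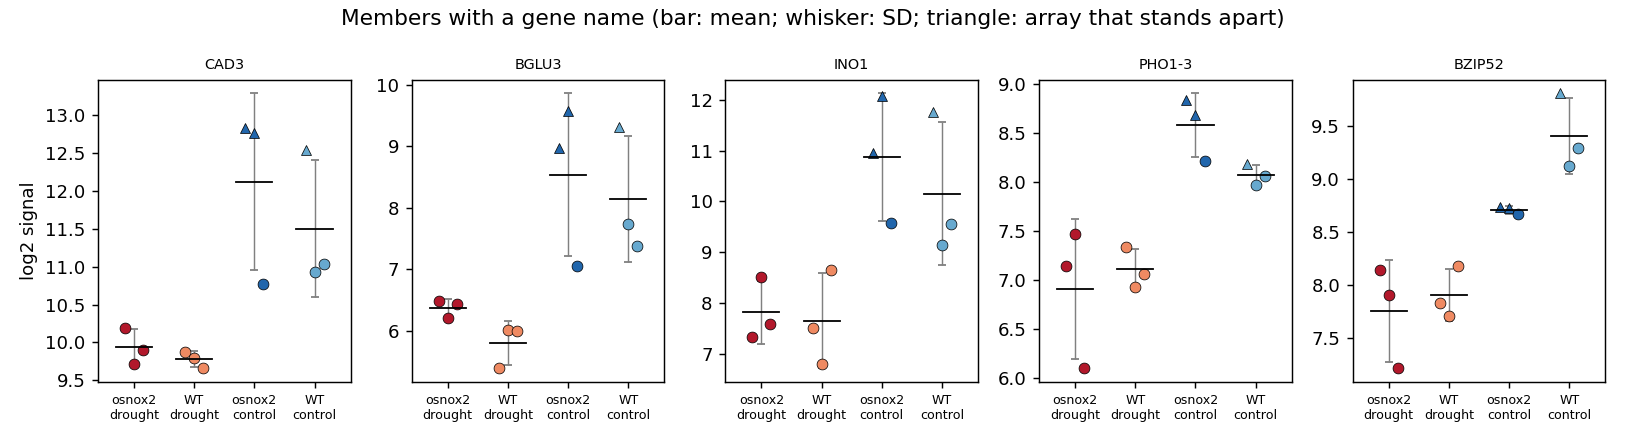
Log2 signal on each array for the 5 members with a gene name, by group (x axis); points are arrays, triangles the 3 control arrays that stood apart, bars means and whiskers the SD of 3 arrays. CAD3, BGLU3 and INO1 are highest on the 3 triangles, while the osnox2 control values of BZIP52, 8.67 to 8.74, lie below its WT control values, 9.12 to 9.81.

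Of 19 pathway lists, built from gene names, members fell in only 2. PHO1-3 was 1 of 16 phosphate genes (HCT3 among them only through an alias) and BZIP52 1 of 131 transcription factors. In leaf photosynthesis, with 10 genes, none passed the test and none had a positive gap, and the median change was -0.25 in osnox2 and 0.03 in WT. Chlorophyll synthesis, with 11 genes, had none either, with medians of -1.28 in osnox2 and 0.09 in WT. The median over all genes was 0.11 in osnox2 and 0.04 in WT. These list medians were not taken without the 3 control arrays that stood apart, of which 2 were osnox2 and 1 WT. No difference between the genotypes is read from them. The lists hold only genes with a name in the annotation, and most members have none.

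Outside the members, the lists held few genes that passed the drought test in limma. Apart from a gene left out by name, those lower were a chitinase gene in osnox2 (-1.43 ± 0.25, adjusted p = 0.0395; WT -0.87 ± 0.25) and D53-L in WT (-0.97 ± 0.13, adjusted p = 0.0279; osnox2 -0.24 ± 0.13). Those higher included the superoxide dismutase genes sodCp, at 0.79 ± 0.12 in osnox2 (adjusted p = 0.0277) and, in WT, with means of 13.95 under drought and 12.95 under control (adjusted p = 0.0218), and SODCC.2, at 2.32 ± 0.27 in osnox2 (adjusted p = 0.0136). In osnox2, NRT2.3 (a nitrate transporter) rose by 2.52 ± 0.36, NH3 (a defence regulator) by 1.34 ± 0.23, and H2B.7, H2B.10 and H2B.11 (histones) by 0.68 to 0.96. Whether these changes differ between the genotypes was covered by the interaction test, in which no probe set passed with all 12 arrays. Without osnox2 control replicate 3, 46 probe sets (0.144%) passed it, and whether these genes were among them was not looked up. A difference that did not pass is not shown to be absent.

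Member genes lay on all 12 chromosomes. Chromosome 6 held 10 of the 60 genes, or 16.7%, against 7.91% of all genes kept, and chromosomes 5 and 9 held 1 each. In 5 instances 2 member genes had at most 23 annotated genes between them. How many such pairs other genes form was not counted, so no clustering is read from these. LOC4330274 and LOC4330276 on chromosome 2 had 1 gene between them, and LOC4341168 and LOC4341171 on chromosome 6 had 3. The other pairs were farther apart, with 10 genes between LOC4352761 and LOC4352768, 19 between LOC4331629 and LOC4331651, and 23 between LOC4327189 and LOC4324276. LOC4330276 changed by -2.31 ± 0.39 in osnox2 and -1.53 ± 0.39 in WT, and its neighbour LOC4330274 by -1.18 ± 0.19 and -0.76 ± 0.19 in the same order. Without the 3 arrays the changes of LOC4330276 were -1.27 in osnox2 and -1.45 in WT. LOC4341168 and LOC4341171 were both dim, with drought means of 2.55 and 1.20 in osnox2 and 3.85 and 1.20 in WT. These neighbouring genes were chosen after their values were seen.

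The control arrays themselves were not alike for the members. On 50 members all 3 control arrays that stood apart were above the other 3, a pattern found in 17.2% of all probe sets, and on 4 they were below, where 25.7% of all probe sets were. In the 50, the 3 arrays exceeded the other controls by a median of 0.903, and the other controls exceeded the drought arrays by a median of 1.03 (log2 differences of means). In 22 of them the first step was the larger. By contrast, the remaining 46 members overlapped, with medians of 0.105 for the first step and 1.61 for the second. The 4 lower members were LOC4344094, OsAffx.21694.2.A1_at, LOC4325158 and 1 probe set of LOC4331629. The rule treats all control arrays alike, and why more members were higher than lower on the 3 arrays was not tested.

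LOC4351693 on chromosome 12 had the widest control range of the members, 7.39. It read 5.78, 5.67 and 6.88 in osnox2 drought and 7.14, 5.92 and 5.21 in WT drought, against 14.96, 14.83 and 7.57 in osnox2 control and 13.71, 9.87 and 8.44 in WT control. Its 3 highest values were those of the arrays that stood apart, and osnox2 control replicate 3 was only 0.432 above the highest drought value. Its change with drought, -6.34 ± 1.83 in osnox2 and -4.58 ± 1.83 in WT, was -1.46 and -3.06 without those arrays. LOC4344635 on chromosome 8 followed, with a range of 4.72, at 14.58, 14.20 and 9.98 in osnox2 control and 14.69, 10.69 and 10.53 in WT control. Os.27724.2.A1_a_at came next at 3.24.

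At the other end, 3 members hardly varied under control. OsAffx.32307.1.A1_at spanned 0.310 over the 6 control arrays, from 5.18 to 5.49, and 3.97 to 4.84 under drought. OsAffx.5214.1.S1_x_at spanned 0.367 and LOC4343925 spanned 0.392. LOC4343925, on chromosome 7, read 9.69, 10.02 and 8.97 in osnox2 drought and 10.78, 10.09 and 10.14 in WT drought, against 11.42, 11.46 and 11.10 in osnox2 control and 11.49, 11.42 and 11.35 in WT control. Its drought values were thus more scattered than its control values. Over all members the median drought range was 0.972, against 0.781 over all probe sets kept, and 59 members were wider over control than over drought arrays.

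**Figure D4:**
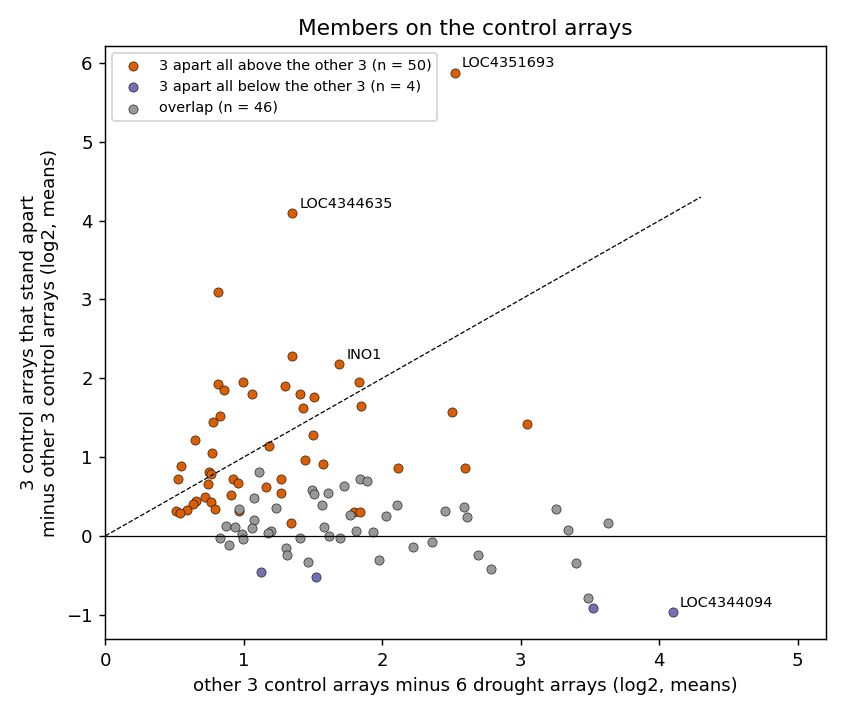
Each point is a member. The x axis gives the mean of the other 3 control arrays minus the mean of the 6 drought arrays, and the y axis the mean of the 3 control arrays that stood apart minus that of the other 3, both in log2; the dashed line marks equal steps. The 22 orange points above the line differ more between the control arrays than between the other controls and drought, with LOC4351693 at the top at 5.87.

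A few arrays decided the choice of members. The lowest control value was that of osnox2 control replicate 3 for 44 members, WT control replicate 2 for 23, WT control replicate 1 for 14 and WT control replicate 3 for 11, so 78 members owed it to a control array that did not stand apart. The highest drought value was a WT array for 61 members and an osnox2 array for 39. With osnox2 control replicate 3 left out, 62 of the 100 were again among the largest 100 gaps, and with the 3 arrays left out 35 were. The median change without the 3 arrays was -1.27 in osnox2 and -1.31 in WT, against -1.88 and -1.52 with them.

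Whether the mutation altered the members was asked of the genotype contrasts, although the choice of members limits what these can show. A gap between conditions is easier to reach with a small spread within each. It is taken over both genotypes, so a difference between them within a condition can narrow it. A transcript lowered by drought in only 1 genotype could not be a member. No member passed the test in any of the genotype contrasts (limma, adjusted p under 0.05). Given the choice, this does not show that the mutation left the members unchanged. Under drought the osnox2 minus WT difference ran from -3.34 to 1.61 with a median of 0.00, against 0.00 over all probe sets, of which 0.103% passed. Under control it ran from -0.70 to 1.79 with a median of 0.22, against -0.06 over all probe sets, of which 0.131% passed. For the difference of the drought responses, osnox2 minus WT, the median was -0.22, against 0.07 over all probe sets, of which 0.0% passed. Unadjusted p-values under 0.05 were reached by 11 members under drought, 5 under control and 9 for the difference of the responses, where 5.02%, 6.86% and 3.36% of all probe sets reached it.

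All 9 of the last were negative, that is, a deeper fall in osnox2, with both probe sets of LOC4342532 among them. Over all probe sets 43.5% were negative at any p, and the share among those with a p under 0.05 was not counted. The direction of the medians rested on the control arrays. Without the 3 arrays, the members' median was 0.11 for the difference of the responses and -0.15 for the genotypes under control, against 0.02 and -0.03 over all probe sets. The osnox2 control then rests on a single array, taken to scatter as the other groups do.

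Under drought, 14 members had all 3 osnox2 values below all 3 WT values, where 8.21% of all probe sets did, and 5 had them above, where 8.26% did. Under control, 4 had osnox2 above WT without overlap, against 3.55% of all probe sets, and 3 had it below, against 4.92%. PHO1-3 was among those higher in osnox2 control (8.58 ± 0.32 in osnox2 and 8.07 ± 0.11 in WT, SD, n = 3, limma adjusted p = 0.765). That difference of 0.51 was 0.20 without the 3 arrays. BZIP52 was among those lower (8.71 ± 0.04 in osnox2 and 9.40 ± 0.36 in WT, adjusted p = 0.697). The 14 include both probe sets of LOC4342532. The differences between these counts and the shares were not tested.

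LOC4342532 on chromosome 7 had 2 probe sets, and on both the drought values of osnox2 were below those of WT. The probe set Os.9276.1.S1_s_at read 6.11, 6.32 and 6.65 in osnox2 drought and 8.06, 7.29 and 7.70 in WT drought, against 9.51, 9.21 and 8.63 in osnox2 control and 8.43, 8.83 and 8.91 in WT control. Os.52184.1.S1_at read 5.40, 4.87 and 5.35 in osnox2 drought and 6.29, 5.88 and 6.16 in WT drought, against 7.84, 7.61 and 7.09 in osnox2 control and 7.40, 7.15 and 7.42 in WT control. Control values of the genotypes overlapped on both. The difference under drought was -1.32 ± 0.28 (limma adjusted p = 0.226) on Os.9276.1.S1_s_at and -0.90 ± 0.27 (adjusted p = 0.580) on Os.52184.1.S1_at. The difference of the responses was -1.71 ± 0.40 (adjusted p = 0.986) on Os.9276.1.S1_s_at, and -1.07 ± 0.42 without the 3 arrays.

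LOC4340447 on chromosome 6 had very little scatter. It read 8.02, 8.09 and 8.06 in osnox2 drought and 8.56, 8.43 and 8.82 in WT drought, against 9.71, 9.76 and 9.50 in osnox2 control and 9.33, 9.43 and 9.27 in WT control. The osnox2 leaves were lower than WT under drought and higher under control, in both without overlap. Differences were -0.54 ± 0.14 under drought (adjusted p = 0.427), 0.32 ± 0.14 under control (adjusted p = 0.726) and -0.86 ± 0.20 for the responses (adjusted p = 0.986). Without the 3 control arrays that stood apart, the difference under control was 0.15 and that of the responses -0.70.

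The smallest p under drought belonged to Os.17474.1.A1_at, with no gene here. It read 0.26, 0.40 and 2.10 in osnox2 drought and 4.28, 4.32 and 4.17 in WT drought, against 5.67, 5.72 and 5.17 in osnox2 control and 5.25, 5.41 and 4.94 in WT control. All its drought values lay below the medians of the arrays. The difference of -3.34 ± 0.62 (adjusted p = 0.124) became -0.33 with an offset of 64. Its difference of the responses, -3.66 ± 0.87 (adjusted p = 0.986), became -0.46.

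On chromosome 12, LOC4352761 and LOC4352768, with 10 genes between them, both had their larger fall in osnox2. LOC4352761 read 8.47, 8.98 and 9.14 in osnox2 drought and 9.13, 9.09 and 9.36 in WT drought, against 10.85, 10.88 and 10.57 in osnox2 control and 10.13, 10.06 and 10.15 in WT control. Under control its genotypes did not overlap, with a difference of 0.65 ± 0.18 (adjusted p = 0.480), and 0.46 without the 3 arrays that stood apart. LOC4352768 differed instead under drought, at 8.75, 8.82 and 9.05 in osnox2 and 9.72, 9.56 and 9.31 in WT, by -0.65 ± 0.21 (adjusted p = 0.629).

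The smallest p under control was that of OsAffx.19386.1.S1_at, with no gene here. It read 9.08, 9.26 and 9.14 in osnox2 control and 9.81, 9.72 and 10.01 in WT control, a difference of -0.69 ± 0.16 (adjusted p = 0.293), and -0.73 ± 0.24 without the 3 arrays. LOC4336013 on chromosome 4 read 8.72, 8.71 and 7.77 in osnox2 control and 7.21, 7.85 and 7.43 in WT control, so the groups overlapped. Its difference of 0.90 ± 0.32 (adjusted p = 0.671) was 0.13 without the 3 arrays.

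**Figure D5:**
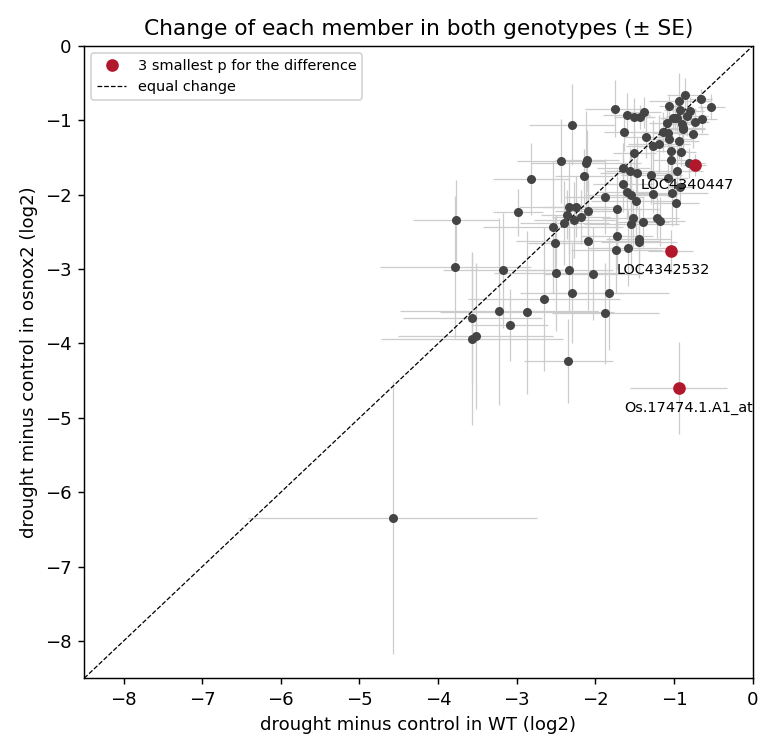
Drought minus control in osnox2 (y axis) against WT (x axis) for each member, in log2 with the SE of the limma fit as bars; the dashed line marks equal change, and red points are the 3 members with the smallest p for the difference of the responses. Every point is negative on both axes because the members were chosen so, and 68 of the 100 points lie below the line, a deeper fall in osnox2, where 43.5% of all probe sets do; without the 3 control arrays that stood apart 46 do.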

How the data were processed

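RNA of 12 leaf samples was measured on Affymetrix rice arrays. The authors deposited log2 signals for 57258 probe sets, made with MAS5 per the submitters' processing notes, with no version given; scaling and array design were not given in the sources used here. Values were used without further normalization. After 64 reporter probe sets were set aside, 57194 remained, and the 32012 that exceeded the array median on 3 or more arrays were kept. Names come from accessions in the annotation of assembly ASM3414082v1 (22436 probe sets matched 1 gene, 18636 of them kept). The files name no build, so no coordinates are given.

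Group means of all 12 arrays were fitted with limma 3.58.1 in R 4.3.3 (eBayes with an intensity trend, two-sided, Benjamini-Hochberg over all kept probe sets, 8 residual degrees of freedom) and tested on simulated data. A call is an adjusted p under 0.05. Python 3.11.15, numpy 2.4.6, pandas 2.3.3 and matplotlib 3.10.9 did the rest. The members, gene lists and tests were chosen with earlier results of these data known. Named in the text are members with a gene name, the 10 largest gaps, the smallest p of each genotype contrast, members at the edge of the rule, genes with several member probe sets, called list genes, and the widest and narrowest control ranges. Alternatives were a filter at the 75th percentile, offsets of 16 and 64, quantile normalization, array medians, no intensity trend, a replicate block, and arrays left out.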

Additional observations from a re-analysis of the deposited data

How the results depend on the processing

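Applied to other values, the rule again chose 64 of the 100 members with a filter at the 75th percentile, 35 without the 3 control arrays that stood apart, 96 and 87 with offsets of 16 and 64, 90 after quantile normalization and 87 after centring on array medians. With single arrays left out the count ran from 62 (without osnox2 control replicate 3) to 96. The median drought change was -1.34 in osnox2 and -1.07 in WT with an offset of 64, and -1.27 in osnox2 without the 3 arrays; the cause was not tested. No member was called between the genotypes under control, but 5 were without osnox2 control replicate 3, when both osnox2 control arrays left are ones that stood apart and 3.9% of all probe sets were called (range 0 to 5 over single arrays left out), namely LOC4350948, Os.11611.1.S1_at, Os.27592.1.A1_at, Os.47694.1.S1_at and OsAffx.12016.1.S1_at, all higher in osnox2. Under drought 1 member was called with no intensity trend (Os.17474.1.A1_at, -3.34 ± 0.42, adjusted p = 0.0257), where 0.0843% of all probe sets were, and 1 without the 3 arrays (LOC4330459, 0.78 ± 0.13, adjusted p = 0.0461), where 0.59% were. These members, other than Os.17474.1.A1_at, were chosen after their values were seen. With single arrays left out, 0 were called under drought, where 0.0406% to 0.181% of all probe sets were. For the difference of the responses 0 were called, where 0% to 0.144% of all probe sets were.

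The replicate block left 0 members called in the 3 genotype contrasts. Of all probe sets 0.0531% were called under control, 0.0687% under drought and 0% for the difference of the responses. Of 18 same-numbered pairs of arrays, 5 correlated above 0.1 in their deviations from the group means (-0.251 to 0.368), and 6 of 12 arrays correlated best with their own number. Of the 6 such pairs within a condition, whose plants may have shared pots, 4 did. The labels do not tie numbers to pots and not every pair correlated, so the numbers were not used as pairs. For the 6 probe sets with the smallest p in a genotype contrast, 191 other values kept their direction and their side of the threshold, and 1 passed it. Signal near the lower end of the array limits what can be read from the 14 members that read below 3 on at least 1 drought array.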
